A study of Homo sapiens with 3 samples.

Results

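Cluster 4 was the largest group of drug-treated sensitive breast cancer cells grown without resistant cells. It comprised every annotated cell that the study placed in cluster 4 of its 14 expression clusters, and its members were taken from the deposited cell annotation with no further selection. The cluster held 2040 of 19237 annotated cells. CAMA-1, an estrogen receptor-positive luminal breast cancer cell line, was used as a parental sensitive line labelled with the fluorescent protein mVenus and as a ribociclib-resistant line derived from it by long culture in the drug and labelled with mCherry. Spheroids of 2000 plated cells with 100% sensitive, 50% sensitive and 50% resistant, or 100% resistant cells all received 1 µM ribociclib, a CDK4 and CDK6 inhibitor, and were harvested at 11 days, and no untreated group was among the samples. The cells were viably frozen and thawed before 10x single-cell RNA sequencing, with 1 library per spheroid composition. Of the 2040 cells, 1945 came from the sensitive monoculture, 84 were sensitive cells of the coculture, 8 were resistant cells of the coculture and 3 were resistant monoculture cells. Cells of 1 library are not replicates of a treatment, and the clusters were built from the same genes that are compared here, so every difference between clusters is given as a description with its counting error and without a test.

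CDK4 and CDK6 bind cyclin D and phosphorylate the retinoblastoma protein, which releases E2F transcription factors and lets a cell leave G1 and copy its DNA. Ribociclib blocks these kinases, and luminal cells that depend on them stop in G1, where transcripts of the S and G2M programmes become scarce. FABP7, the gene proposed as marker of cluster 4, encodes a fatty acid-binding protein that carries fatty acids through the cytoplasm, and it is best known from glial cells of the brain and from some breast tumours.

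The label of arrested sensitive cells was first compared with the data. By the phase deposited for each cell, 1949 of the 2040 cells were in G1, 74 in S and 17 in G2M, so that 4.46% were in S or G2M (exact binomial 95% interval 3.61 to 5.45). The share was 47.3% among all other annotated cells (46.6 to 48.1) and 20.1% among the other cells of the sensitive monoculture (18.0 to 22.3). Of the 278 other monoculture cells in S or G2M, 40 were in cluster 3, 2 in cluster 8 and 1 in cluster 12. Most of the rest were in cluster 7, the cycling cluster with 232 cells, so the 20.1% largely reflects that cluster. When the phases were called again after each cell had been thinned to 5000 unique molecular identifiers (UMIs), 15.98% of cluster 4 cells and 26.4% of the other monoculture cells were in S or G2M, so the order was kept while the level was not. Clusters 8 and 12 of the monoculture had fewer cells in S or G2M than cluster 4 in both sets of calls, with 0.294% and 0.641% by the deposited phase and 7.49% and 5.77% after thinning. By the deposited phase cluster 3 of the library had 14.98%, and cluster 9, with 39 cells, had 7.69% (1.62 to 20.9), an interval that held the share of cluster 4. The cells were sensitive by lineage label, since mVenus was detected in 68.0% of the 1945 monoculture cells and mCherry in 0. The stated filter of 2 or more transgene UMIs per cell thus did not hold for the annotated monoculture cells. Luminal markers were abundant. The summed level of EPCAM, KRT8, KRT18, KRT19, GATA3, FOXA1 and ESR1 was 9765 CPM (UMIs of a gene per 1000000 UMIs) in cluster 4 of the monoculture, against 8298 CPM in the other cells of that library. Markers of other cell types were at or near 0. Basal markers summed to 6.30 CPM, with KRT5 at 0, endothelial markers to 0.357 CPM, immune markers to 0.934 CPM and adipocyte markers to 0.289 CPM. Of the 7 fibroblast markers 5 were at 0, and COL3A1, a collagen gene, reached 42.7 CPM against 23.5 CPM in the other monoculture cells and made up nearly all of the fibroblast sum of 45.4 CPM.

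Depth and quality were close to those of the neighbouring cells with exceptions that touch later results. Cluster 4 cells had a median of 29489 UMIs and 4719 genes, and a median mitochondrial share of 21.3%. All other annotated cells had medians of 32787 UMIs, 4836 genes and 15.8%. A share of 20% or more was found in 59.0% of cluster 4 cells and in 23.7% of all other annotated cells. Cluster 8 cells of the monoculture were shallower, with a median of 21423 UMIs, at the same mitochondrial share of 21.3%, and cluster 12 cells had 24248.5 UMIs and 19.99%. The nuclear transcript MALAT1 took 5.05% of the UMIs of cluster 4 in the monoculture, 8.95% in cluster 8, 8.89% in cluster 12 and 3.21% in cluster 3. A scrublet doublet score above 0.25 was found for 36 of the 2040 cells, although predicted doublets had been removed by the study with the same limit, and 13 of the 2040 cells had a barcode that also occurred in another library.

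Cluster 4 was a feature of the sensitive monoculture. It took up 58.4% of the 3329 sensitive monoculture cells (56.7 to 60.1), followed by cluster 8 with 681 cells, cluster 3 with 267, cluster 7 with 232, cluster 12 with 156 and cluster 9 with 39. Among the 2059 sensitive cells of the coculture, only 84 were in cluster 4, a share of 4.08% (3.27 to 5.03), while cluster 3 took 52.8% and cluster 7 took 29.97%. Cluster 7 was the cycling cluster, with 99.6% of its monoculture cells in S or G2M. With 1 library each, culture with resistant cells and differences between the libraries cannot be told apart.

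FABP7, on chromosome 6 (GRCh37, 123100861 to 123105219, plus strand), was highest by summed CPM in cluster 4 of the sensitive monoculture among all cluster and population pairs of 20 or more cells. It reached 1775 CPM there (exact Poisson 95% interval 1765 to 1786), and a UMI was seen in 81.7% of the cells (79.9 to 83.4). Within the same library the level was 1454 CPM in cluster 9, 1211 CPM in cluster 7, 948 CPM in cluster 3, 537 CPM in cluster 8 and 450 CPM in cluster 12, and the intervals of these neighbours did not overlap. These intervals cover counting error only and not the spread between cells. Per-cell quartiles were 34.4 and 2607 CPM in cluster 4 and 0 and 2752 CPM in cluster 9, which had 39 cells. The order thus describes sums over these cells only. The 84 coculture cells of cluster 4 stood at 1052 CPM (1012 to 1093), between clusters 7 and 3 of the monoculture and above every other group of coculture cells, the next being clusters 3 and 7 of the sensitive cells at 276 and 273 CPM, whose intervals overlapped. Resistant monoculture cells were near 0, with 0.808 CPM (0.705 to 0.923) and a UMI in 1.79% of 7557 cells at a median depth of 35443 UMIs. That share is no measure of free RNA in libraries rich in the transcript. In the coculture, whose annotated cells together stood at 86.4 CPM, a UMI was seen in 18.2% of the 6292 resistant cells (17.3 to 19.2) at a median depth of 30686.5 UMIs, mostly as 1 to 2 UMIs (16.2% of the cells), and 10 or more UMIs were seen in 0.954%. The sensitive monoculture, at 1398 CPM, held no cells that should lack FABP7, so shares of cells with a UMI in that library are given without a background and how much of them free RNA made up was not tested. Without thinning the share was 82.4% in cluster 3, 64.9% in cluster 8 and 66.7% in cluster 12 of the monoculture. After thinning to 5000 UMIs, 61.1% of cluster 4 monoculture cells had a FABP7 UMI, 60.3% in cluster 3, 36.7% in cluster 8 and 38.5% in cluster 12, so cluster 4 stood above cluster 3 by its level and not by its share of positive cells.

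**Figure D1:**
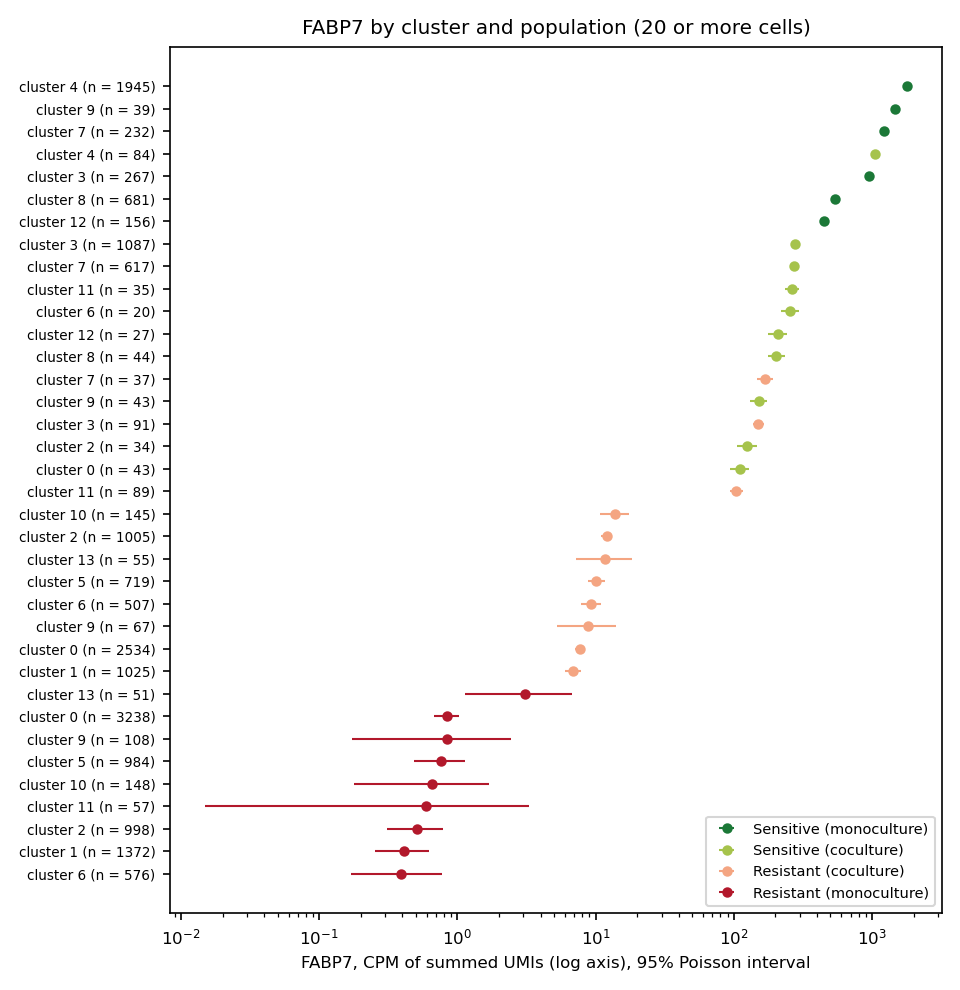
FABP7 in CPM of summed UMIs on a log axis for each cluster and population with 20 or more cells, ordered by level, with exact Poisson 95% intervals. Each point is 1 group of cells of 1 library, and colours mark the 4 populations. The 6 sensitive monoculture groups and cluster 4 of the coculture fill the top, from 1775 down to 450 CPM, and resistant monoculture groups fill the bottom.

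Single cells of cluster 4 were divided by this gene. Of the 1945 monoculture cells, 356 had no FABP7 UMI, 448 had 1 to 2, 145 had 3 to 9, 336 had 10 to 49 and 660 had 50 or more, with a median of 12, quartiles of 1 and 80 and a highest value of 644. Few cells thus lay between the low and the high values. The variance of FABP7 over its mean was 19.7 after thinning, rank 6 of 1219 genes, for which the median was 1.09. The genes above it were MALAT1, the secreted MUCL1, TFF1 and MGP and the mitochondrial MT-CO2. The division was not particular to cluster 4. Of the monoculture cells, 51.2% had 10 or more FABP7 UMIs in cluster 4, 50.9% in cluster 3, 18.2% in cluster 8 and 19.2% in cluster 12, and the variance over the mean was 22.4 in cluster 8.

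**Figure D2:**
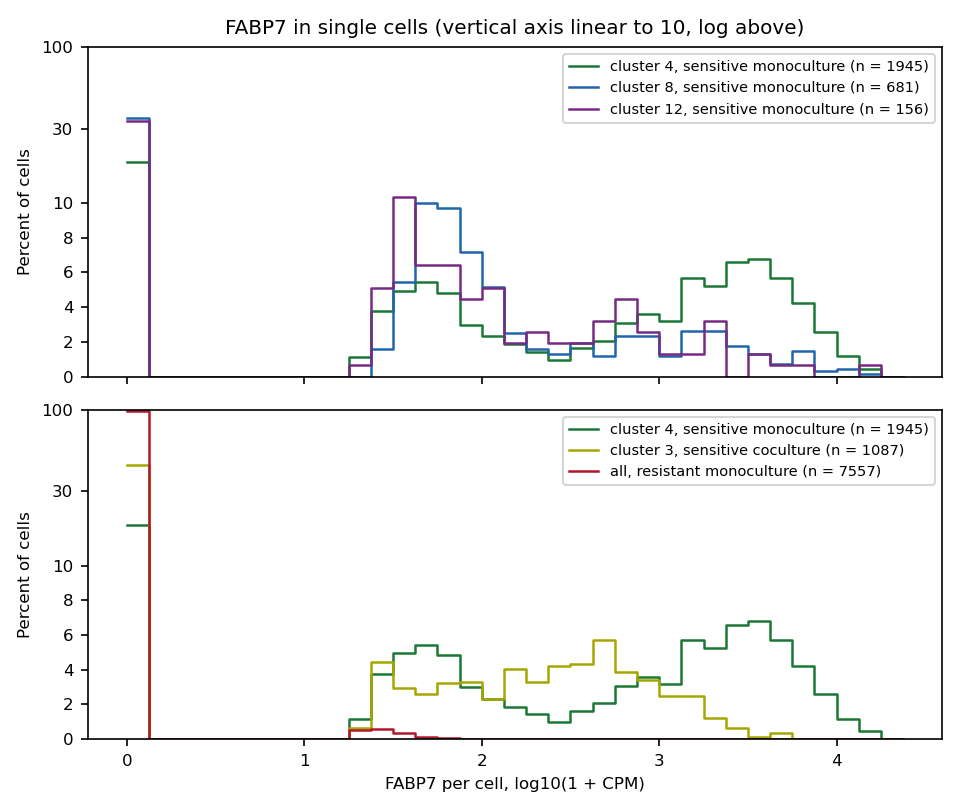
Percent of cells (vertical axis, linear to 10 and log above) by FABP7 level per cell as log10(1 + CPM). The upper panel shows clusters 4, 8 and 12 of the sensitive monoculture, the lower one cluster 4 beside cluster 3 of the coculture and all resistant monoculture cells. Cluster 4 shows a low group, which includes the cells without a UMI, and a high group. The gap beside the cells without a UMI arises because counts are whole numbers.

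Against all other annotated cells, cluster 4 had more FABP7, STC2 and ANKRD37 and fewer transcripts of the S and G2M programmes. Most of the other cells were resistant, so lineage moved with this comparison, and so did the mitochondrial share. Of the 2299 genes that averaged 50 CPM or more over both groups, 44 (1.91%) were higher by 2-fold or more and 39 (1.7%) lower, on the scale of log2(CPM + 1). With G1 cells only 12 were lower, all among the 39, and with the other populations weighted equally 19 were higher, 17 of them among the 44. FABP7 stood at 1739 CPM in cluster 4 and 88.4 CPM elsewhere, a log2 ratio of 4.28. STC2, which encodes the secreted glycoprotein stanniocalcin 2, followed with 202 against 31.7 CPM (log2 2.63), then ANKRD37, an ankyrin repeat gene induced by hypoxia, with 188 against 35.5 CPM (2.37). The histone gene HIST1H4H, which has polyadenylated transcripts outside S phase, reached 86.6 against 16.1 CPM. LXN, a carboxypeptidase inhibitor, reached 149 against 30.5 CPM and SCIN, an actin-severing protein, 105 against 23.5 CPM. S100A1, a calcium-binding protein, was at 258 against 67.4 CPM, and MUCL1, a small secreted mucin of mammary cells, at 2563 against 697 CPM. CPE, LURAP1L, MAPT and ID3 completed the 12 highest genes, with log2 ratios of 1.86, 1.71, 1.65 and 1.52. ID3, an inhibitor of basic helix-loop-helix factors, was the most abundant of these with 984 against 343 CPM.

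Among the 12 lowest genes were NUSAP1, BIRC5, TOP2A, UBE2C, CENPF and AURKA of the G2M list, the histone gene HIST1H4C, and PTTG1 and PCLAF, with log2 ratios between -3.97 and -2.09. HIST1H4C, the histone gene of replicating cells, fell from 466 CPM elsewhere to 28.8 CPM in cluster 4. NUSAP1, a spindle protein, stood at 10.1 against 116 CPM. The others were the chromatin protein DEK (54.4 against 220 CPM), the metallothionein MT2A (48.9 against 413 CPM) and MGP, matrix Gla protein, at 475 CPM in cluster 4 against 5274 CPM elsewhere. Across clusters 3, 4, 7, 8 and 12 of the monoculture MGP lay between 282 and 450 CPM, with cluster 4 at the top, so its low level was shared by the sensitive monoculture cells.

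Within the sensitive monoculture, where lineage and library were the same, cluster 4 differed less from its neighbours. Of 2363 genes that averaged 50 CPM or more, 4 (0.169%) were higher by 2-fold and 15 (0.635%) lower. The 4 higher genes were FABP7 (1775 against 804 CPM, log2 1.14), SNCG (343 against 168 CPM, 1.03), STC2 (204 against 99.9 CPM, 1.02) and ANKRD37 (193 against 94.8 CPM, 1.02). The counting intervals of SNCG, STC2 and ANKRD37 included a log2 ratio of 1. With a pseudocount of 10 CPM only 1 of the 4 stayed past 2-fold. SNCG encodes gamma-synuclein, a small cytoplasmic protein found in some breast tumours. Of the 15 lower genes, PTTG1, which encodes securin, was lowest with 28.6 against 217 CPM (log2 -2.88), followed by HIST1H4C (-2.74), PCLAF (-2.48), MT2A (-2.06) and TOP2A (-2.01). With G1 cells only, 6 genes were lower within the monoculture, of which 3 were among the 15, PTTG1 (log2 -1.41) averaged under 50 CPM and was not counted, and TOP2A, UBE2C, CENPF and TPX2 turned to log2 ratios between 0.42 and 1.07. S100A1, LXN, SCIN and MUCL1, high against all cells, did not pass 2-fold here, at log2 ratios of 0.70, 0.41, 0.10 and -0.56. Of other hypoxia-inducible genes, VEGFA had a log2 ratio of -0.71 and SLC2A1 one of 0.50 within the monoculture.

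The cell cycle lists described the arrest gene by gene. Of the 41 S-phase genes with 50 or more UMIs, 24 were lower by 2-fold in cluster 4 than in all other cells and 0 higher (median log2 -1.29). Of 53 G2M genes, 42 were lower and 0 higher (median -1.58). Over all 13594 genes with 50 or more UMIs, 303 (2.23%) were higher and 337 (2.48%) lower, with a median of 0.01. Within the monoculture 13 of 41 S-phase genes and 35 of 53 G2M genes were lower and none higher, with medians of -0.70 and -1.31, beside 157 (1.34%) lower and 17 (0.145%) higher of 11748 genes. TYMS, the thymidylate synthase of DNA precursor supply, stood at 3.01 against 43.5 CPM, RRM2, a ribonucleotide reductase subunit, at 3.19 against 39.9 CPM and MKI67, the Ki-67 antigen, at 4.99 against 50.7 CPM. In G1 cells only the levels were lower on both sides, with TYMS at 1.85 against 5.10 CPM and MKI67 at 3.07 against 5.55 CPM. RRM2 was at 1.80 (1.46 to 2.18) against 2.11 CPM (1.60 to 2.73). In G1 cells of cluster 3 of the library TYMS was 17.4 and MKI67 17.6 CPM. They were 0.469 and 0.737 CPM in cluster 8 and 1.82 and 1.30 CPM in cluster 12. The position was intermediate: cluster 8 was lower still. Against cluster 8, 7 of 40 S-phase genes and 25 of 53 G2M genes were higher in cluster 4 and 0 lower (medians 0.53 and 0.89), beside 1.76% higher and 1.38% lower over all genes, and against cluster 12, 9 of 53 G2M genes were higher and 0 lower (median 0.41), with 4 S-phase genes higher and 2 lower of 40 (median 0.08), beside 2.62% higher and 1.65% lower over all genes.

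The share of cycling cells bears on these medians directly, and the other monoculture cells included the cycling cluster 7. With G1 cells only, the median of the G2M list within the monoculture turned to 0.35 and that of the S-phase list lay at 0.01. In G1 cells the G2M genes summed to 1469 CPM in cluster 4, 1174 CPM in cluster 8, 1507 CPM in cluster 12, 1603 CPM in cluster 3 and 1788 CPM in the resistant monoculture. PTTG1 in G1 cells was 25.7 CPM in cluster 4 and 247 CPM in cluster 3 of the same library, with 5.16 CPM in cluster 8. CDK1 in G1 cells was 10.7 CPM in cluster 4, 13.3 CPM in cluster 3 and 1.41 CPM in cluster 8. PTTG1 thus set cluster 4 apart from cluster 3 even in G1, while CDK1 was close between them. The 88 cells of cluster 4 called S or G2M in the monoculture were called from these gene lists, so their higher cycling transcripts follow from the call. Their FABP7 was 1829 CPM against 1772 CPM in the G1 cells, and their CCND1 2061 against 2033 CPM.

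Among the genes of the CDK, RB and E2F axis, CCND1 was higher in cluster 4 than in the other monoculture cells, CDK4 and RB1 hardly differed, and several genes of S and G2M phase were lower. CCND1, cyclin D1, was abundant, with 2035 CPM in cluster 4, 1394 CPM in the other monoculture cells, 1166 CPM in cluster 8 and 1449 CPM in cluster 12. CDK4 stood at 104 against 114 CPM in the other monoculture cells and CDK6 at 0.170 against 0.214 CPM, so CDK6 was scarcely detected, and CCND2 had no UMI. RB1 was 20.6 against 20.7 CPM. Of 27 measured genes of the axis, 7 were lower by 2-fold than in the other monoculture cells and 0 higher (median -0.29), beside 1.34% lower and 0.145% higher over all genes, among them CCNA2 (1.46 against 13.7 CPM), MYBL2 (8.70 against 37.9 CPM), CCNE2 (1.903 against 8.03 CPM), CDK1 (12.5 against 38.0 CPM) and FOXM1 (2.58 against 7.62 CPM). In G1 cells only, the direction turned for CDK1, CCNA2, FOXM1 and CCNB1, all among the 7, with log2 ratios between 0.31 and 0.99. There, CDK1 was 10.7 CPM in cluster 4 against 4.92 CPM in the other monoculture cells, and CCNB1 40.6 against 29.5 CPM. Relative to cluster 8, 3 of 25 were higher and 0 lower, beside 1.76% higher and 1.38% lower over all genes. These were MYBL2 (8.70 against 0.798 CPM), CDK1 (12.5 against 1.80 CPM) and CCNB1 (42.6 against 17.6 CPM). E2F1, the activator E2F, was 17.5 CPM in cluster 4, 21.8 CPM in the other monoculture cells and 8.58 CPM in cluster 8.

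Within the monoculture the CDK inhibitor genes were not raised as a group. CDKN1A, p21, stood at 23.7 CPM in cluster 4 and 23.6 CPM in the other monoculture cells, and CDKN1B, p27, at 19.7 against 23.1 CPM. Of 7 measured inhibitors, 2 were lower within the monoculture and 0 higher, beside 1.34% lower over all genes. These were CDKN3, a phosphatase gene that itself is expressed in mitosis (22.7 against 55.1 CPM), and CDKN2C, p18 (1.43 against 4.71 CPM). In G1 cells only, CDKN3 turned to a log2 ratio of 0.082. CDKN2A was 59.5 CPM in cluster 4, 56.6 CPM in cluster 8 and 26.7 CPM in cluster 12, and CDKN2B was 7.88 CPM against 20.3 CPM in cluster 8. CDKN1A was 30.5 CPM in cluster 8 and 15.7 CPM in cluster 12, on either side of cluster 4.

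Promoters of some of the lowest genes are shown because cell cycle promoters are known for pairs of the NF-Y motif CCAAT, read on either strand as CCAAT or ATTGG. Those of FABP7 and ANKRD37, among the highest genes, are shown beside them. Of the 12 lowest genes, 7 had a window. In the 250 bases before the start, 6 of these 7 held the motif and 5 held 2 or more. With a window, 31 of 44 G2M genes (70.5%) and 22 of 30 S-phase genes (73.3%) held it. The share over all 27305 genes with windows was 37.0%, with 11.3% holding 2 or more, and 5 of 11 of the highest genes held it. The letters ACGTG, the core of the hypoxia response element, read on either strand as ACGTG or CACGT, occurred in 21.7% of all genes, 2 or more times in 3.20%, and 2 of the 11 highest genes (18.2%) and 3 of the 7 lowest (42.9%) held it. It occurred 2 or more times in 2 of the 11 highest and 0 of the 7 lowest. Of 35 genes of the hypoxia-inducible list with a window, 26 (74.3%) held it. The windows come from RefSeq on GRCh38.p14, a later build than that of the counts, and the last 200 bases are printed 5′ to 3′ on the gene's strand. They are NUSAP1 chr15:41332681-41332880 on the plus strand, TOP2A chr17:40417897-40418096 on the minus strand, CENPF chr1:214602995-214603194 on the plus strand, PCLAF chr15:64381442-64381641 on the minus strand, FABP7 chr6:122779516-122779715 on the plus strand and ANKRD37 chr4:185396641-185396840 on the plus strand. Capitals mark CCAAT or ATTGG in the first 5 and ACGTG or CACGT in ANKRD37.
NUSAP1: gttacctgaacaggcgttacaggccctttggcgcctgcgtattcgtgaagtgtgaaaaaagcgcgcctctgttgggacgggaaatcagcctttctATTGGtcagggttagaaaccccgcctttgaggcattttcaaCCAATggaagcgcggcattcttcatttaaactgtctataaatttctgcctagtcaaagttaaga
TOP2A: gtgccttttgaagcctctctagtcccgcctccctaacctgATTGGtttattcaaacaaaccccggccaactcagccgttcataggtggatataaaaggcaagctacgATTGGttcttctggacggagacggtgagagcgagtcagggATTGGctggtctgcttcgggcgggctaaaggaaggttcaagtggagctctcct
CENPF: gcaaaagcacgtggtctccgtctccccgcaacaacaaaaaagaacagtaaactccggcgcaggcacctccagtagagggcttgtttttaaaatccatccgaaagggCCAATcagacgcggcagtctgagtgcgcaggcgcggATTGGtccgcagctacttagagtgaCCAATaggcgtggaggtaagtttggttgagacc
PCLAF: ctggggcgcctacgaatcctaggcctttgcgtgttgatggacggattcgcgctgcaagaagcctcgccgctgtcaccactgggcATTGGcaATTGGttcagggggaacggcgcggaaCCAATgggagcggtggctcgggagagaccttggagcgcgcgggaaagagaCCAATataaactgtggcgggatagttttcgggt
FABP7: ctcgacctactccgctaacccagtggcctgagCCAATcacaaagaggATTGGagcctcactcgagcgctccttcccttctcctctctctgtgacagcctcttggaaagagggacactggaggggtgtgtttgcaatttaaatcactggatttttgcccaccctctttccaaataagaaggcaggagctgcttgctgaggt
ANKRD37: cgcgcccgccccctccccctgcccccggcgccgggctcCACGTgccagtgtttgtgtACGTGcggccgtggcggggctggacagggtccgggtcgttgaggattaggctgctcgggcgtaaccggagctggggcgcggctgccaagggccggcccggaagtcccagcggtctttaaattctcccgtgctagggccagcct
A match is a string of letters in a promoter window and not a measured binding site.

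Cluster 8 was the next largest cluster of the monoculture. Cluster 4 had more SNCG, FABP7, ADIRF and GAPDH and less GDF15, SAT1 and TXNRD1. Of 2364 genes that averaged 50 CPM or more, 24 (1.02%) were higher in cluster 4 and 23 (0.973%) lower. With trimmed mean of M-values (TMM) scaling instead of CPM the numbers were 30 higher and 16 lower. They were 37 and 43 in cells with a mitochondrial share under 20%, and 15 and 15 with a pseudocount of 10 CPM. SNCG had the highest ratio, with 343 CPM in cluster 4 and 79.9 CPM in cluster 8 (log2 2.09), before FABP7 with 1775 against 537 CPM (1.72). GGH, gamma-glutamyl hydrolase of folate turnover, stood at 86.9 against 27.9 CPM, ADIRF, an adipogenesis regulatory factor, at 1431 against 523 CPM, and PPIF, a mitochondrial cyclophilin, at 98.8 against 38.0 CPM. The glycolytic enzyme GAPDH was 1505 against 660 CPM. LY6E, ANKRD37, PITX1, EAF1, QPRT and DEGS2 followed with log2 ratios from 1.24 to 1.15. All 12 were above their cluster 8 level by more than the counting intervals.

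The lowest gene against cluster 8 was GDF15, a stress-induced secreted factor of the TGF-beta family, with 2.33 CPM in cluster 4 and 113 CPM in cluster 8 (log2 -5.10). It was also low in clusters 12 and 3 of the library, at 2.05 and 2.61 CPM, and in cluster 8 of the coculture it was 194 CPM, so the high level belonged to cluster 8. The long noncoding RNA LINC01133 was 20.6 against 120 CPM, SAT1, a polyamine acetyltransferase, 28.3 against 131.5 CPM, and SPTSSB, a serine palmitoyltransferase subunit, 84.8 against 354 CPM. EDN1, endothelin, was 67.4 against 233 CPM and TXNRD1, thioredoxin reductase, 45.0 against 122 CPM. MUCL1, which was high in cluster 4 against all cells, was lower than in cluster 8, at 2459 against 6421 CPM. LTBP1, PLPP2, IER5L, PERP and MYLIP had log2 ratios between -1.55 and -1.23. HMOX1, heme oxygenase, was 11.5 against 71.0 CPM and CYP1A1, a target of the aryl hydrocarbon receptor, 8.61 against 90.7 CPM. The lower depth and the higher MALAT1 share of cluster 8 moved with these differences, and their part was not tested.

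**Figure D3:**
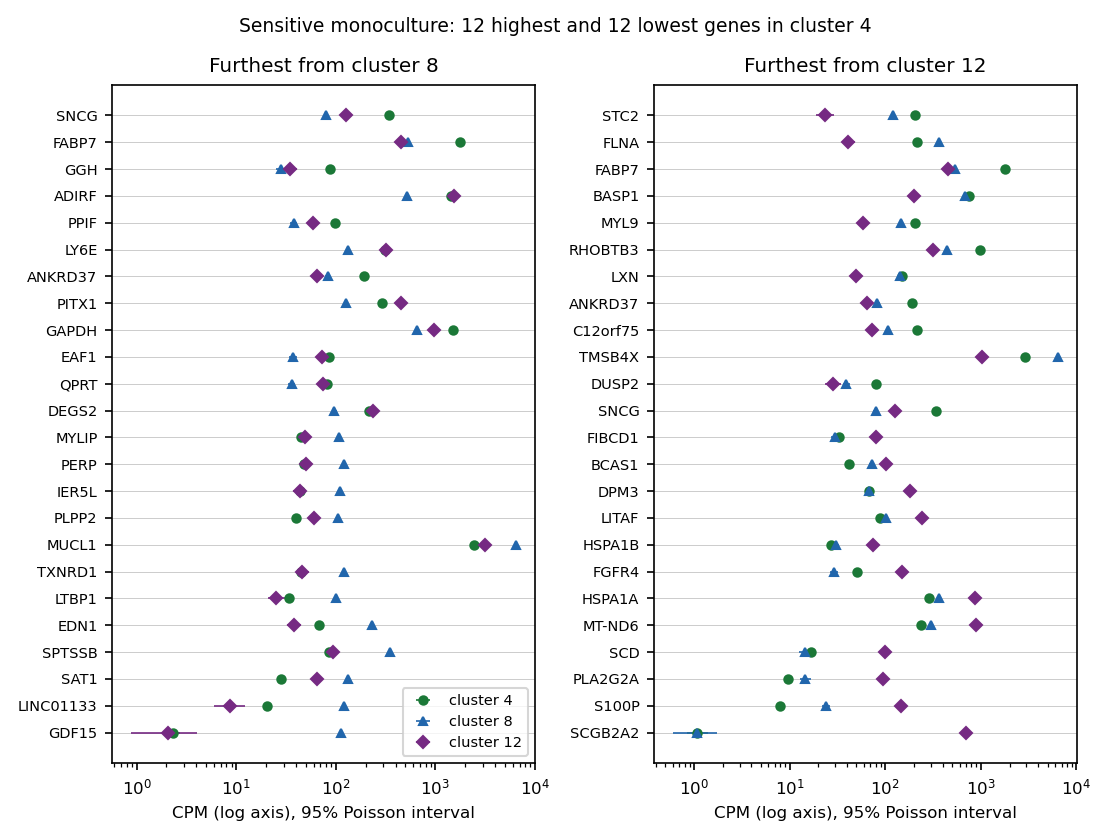
CPM on a log axis, with exact Poisson 95% intervals, of the 12 highest and 12 lowest genes of cluster 4 against cluster 8 (left) and cluster 12 (right), for clusters 4, 8 and 12 of the sensitive monoculture. Each point is the sum over the cells of 1 cluster. GDF15 in cluster 8 (113 CPM) and SCGB2A2 in cluster 12 (698 CPM) stand far from both other clusters.

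Gene lists were counted in the same way. Over 11450 genes with 50 or more UMIs, 201 (1.76%) were higher than in cluster 8 and 158 (1.38%) lower. Of the 12 measured senescence-linked secreted factors, 4 were lower (GDF15, CXCL8, VEGFA and CCL2) and 1 higher (IGFBP4), with a median of -0.30. Of 14 NRF2 antioxidant genes, 3 were lower (HMOX1, TXNRD1 and SLC7A11) and 0 higher. Of 37 estrogen-induced genes, 4 were higher and 0 lower (median 0.42), namely PDZK1, CTSD, IGFBP4 and CXCL12. CTSD, the lysosomal protease cathepsin D, was 875 against 395 CPM. The calcium-binding S100A8 and S100A9 were higher in cluster 4 by log2 2.11 and 1.37, and the related S100P was lower by log2 -1.48. Of the 76 cytosolic ribosomal protein genes none passed 2-fold, with a median of 0.32, and the 7 luminal markers likewise had none past 2-fold, with a median of 0.35.

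Cluster 12 was small, and cluster 4 had less SCGB2A2, S100P and SCD and more STC2 and FLNA. Of 2396 genes that averaged 50 CPM or more, 30 (1.25%) were higher in cluster 4 and 22 (0.918%) lower, and with TMM scaling 45 were higher and 12 lower. TMM moved the median over these genes from -0.06 to 0.08. SCGB2A2, mammaglobin A, was 1.09 CPM in cluster 4 and 698 CPM in cluster 12 (log2 -8.39), with 1.06 CPM in cluster 8. S100P was 7.95 against 145 CPM, the phospholipase PLA2G2A 9.73 against 94.0 CPM and SCD, the stearoyl-CoA desaturase, 16.6 against 100.2 CPM. MT-ND6, HSPA1A, FGFR4, HSPA1B, LITAF, DPM3, BCAS1 and FIBCD1 had log2 ratios from -1.92 to -1.24. The heat shock gene HSPA1A was 287 against 870 CPM.

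STC2 was the highest gene against cluster 12, with 204 against 23.6 CPM (log2 3.05). FLNA, the actin crosslinker filamin A, was 215 against 41.3 CPM, MYL9, a myosin light chain, 206 against 59.1 CPM, and TMSB4X, the actin-binding thymosin beta, 2874 against 1042 CPM. FABP7 was 1775 against 450 CPM, BASP1 747 against 202 CPM and RHOBTB3 988 against 317 CPM. LXN, ANKRD37, C12orf75, DUSP2 and SNCG completed the list with log2 ratios from 1.57 to 1.44. FLNA and TMSB4X were higher still in cluster 8, at 366 and 6397 CPM, so their low level set cluster 12 apart from both. Over 11246 genes with 50 or more UMIs, 295 (2.62%) were higher than in cluster 12 and 185 (1.65%) lower. The 28 sterol and fatty acid synthesis genes measured had a median of -0.84, with 26 below 0, and 0 were higher by 2-fold. SCD, a fatty acid desaturase, was 16.6 against 100.2 CPM (log2 -2.52) and FASN, the fatty acid synthase, 67.2 against 146 CPM (log2 -1.11). Against cluster 8 the same list had none past 2-fold, with a median of 0.05. Cluster 12 rested on 156 cells, and its sum of 3893770 UMIs bounds the precision of these ratios.

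**Figure D4:**
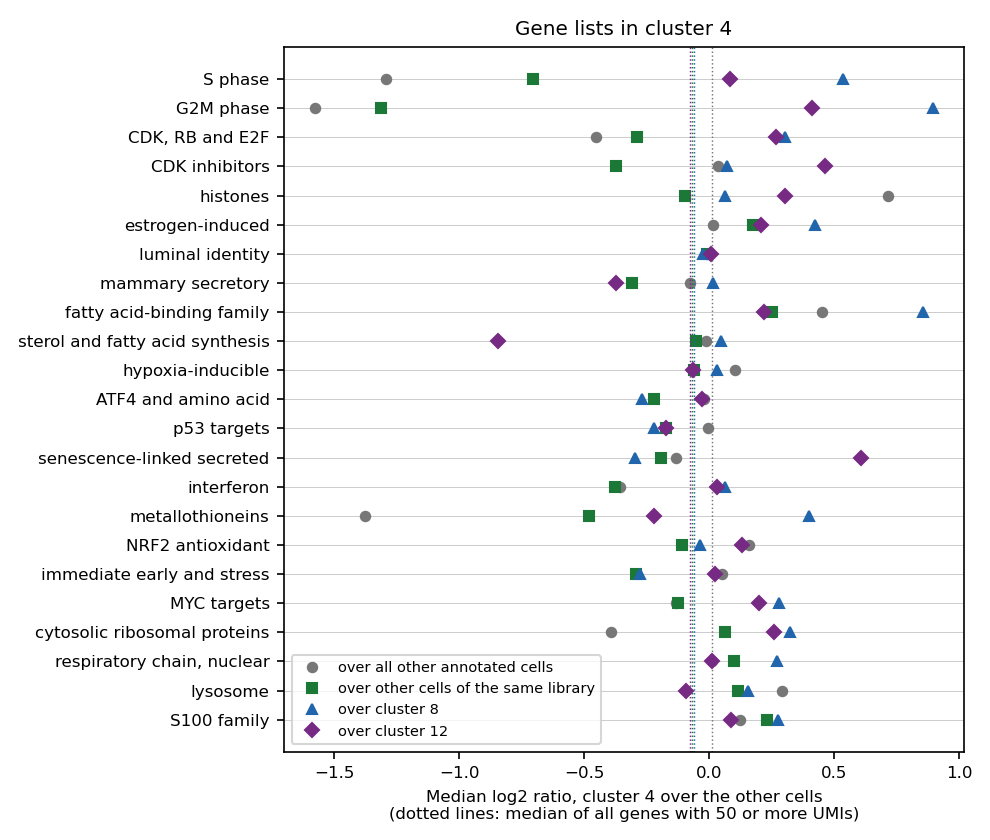
Median log2 ratio of cluster 4 over the other cells for 23 gene lists (rows), for 4 comparisons (symbols), with dotted lines at the median of all genes with 50 or more UMIs. S and G2M lists lie left of the lines against all cells and the rest of the library and right of them against cluster 8, and sterol and fatty acid synthesis lies left against cluster 12 at -0.84.

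Several groups differed against all cells and less within the library. Against all other cells the 4 measured metallothioneins were all lower (median -1.38), while within the monoculture only MT2A passed 2-fold (45.3 against 192 CPM), beside 1.34% lower over all genes. Of 16 histone genes, 6 were higher and 4 lower against all cells, beside 2.23% higher and 2.48% lower over all genes. HIST1H4H, HIST1H2BC, HIST1H2BD, HIST1H2AC, HIST1H1C and HIST2H2BE were the higher ones and HIST1H4C, HIST1H1B, HIST1H1E and HIST2H2AC the lower ones. The 4 genes linked to arrest in sensitive cells, a list chosen on these cells and so no independent evidence, had 3 higher (LXN, SCIN and LURAP1L) against all cells. Within the monoculture none was higher and SPTSSB was lower, at 84.8 against 182 CPM (log2 -1.09). Of 21 measured p53 targets, 3 were higher against all cells (PLK2, BTG2 and GADD45A), beside the same 2.23%, and none passed 2-fold within the monoculture, where BBC3, a pro-apoptotic BCL2-family gene, stood at 9.60 against 19.96 CPM. In the fatty acid-binding family FABP7 was the only member past 2-fold within the monoculture, with CRABP2 at 211 against 177 CPM and CRABP1 at 347 against 265 CPM.

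The 84 coculture cells of cluster 4 resembled those of the monoculture. They were placed in the cluster by their expression, so this likeness and their difference from other coculture cells were partly set by that choice. Their median depth was 28442.5 UMIs, and 3 of 84 (3.57%) were in S or G2M. Between the coculture and the monoculture cells of the cluster, 10 of 2296 genes that averaged 50 CPM or more were higher by 2-fold (0.436%) and 1 was lower (0.0436%). The higher ones were TFF3 (386 against 100 CPM), MT2A (129 against 45.3 CPM), ATP5ME (1097 against 481 CPM), MGP (980 against 450 CPM), ROMO1, EIF3J, MUCL1 (5187 against 2459 CPM), MIF, SNHG25 and S100A8. ANKRD37 was the lower one, at 87.2 against 193 CPM. After thinning to 5000 UMIs 14 genes were higher and 8 lower, and in cells with a mitochondrial share under 20% 15 and 3. TFF3, a trefoil peptide induced by estrogen, had the largest ratio with log2 1.93. STC2 was near equal, at 183 CPM in coculture and 204 CPM in monoculture. Against the other sensitive coculture cells, the 84 cells had FABP7 at 1052 against 261 CPM, STC2 at 183 against 39.1 CPM and S100A1 at 166 against 40.8 CPM, while COL3A1 was 18.1 against 18.7 CPM. With the coculture cells of cluster 4 the whole-profile distance from the monoculture cells of the cluster was a root mean square log2 difference of 0.286 over 2285 genes, next to cluster 9 of the monoculture (0.262) and before clusters 3 (0.341), 8 (0.393) and 12 (0.432). The counting error alone accounted for 0.158 in cluster 9, which had 39 cells, and for 0.0969 in the coculture cells. The 11 resistant cells placed in cluster 4 were all in G1, and a FABP7 UMI was present in 4 of the 8 from the coculture, with 1, 23, 28 and 53 UMIs, beside 18.2% of all resistant coculture cells. It was present in 1 of the 3 from the monoculture, with 36 UMIs. The 4 coculture cells with FABP7 each had 1 mCherry UMI, below the 2 that the study stated as its minimum. The other 4 had 1, 2, 2 and 3, and the monoculture cell with FABP7 had 2. Whether the resistant label held for these cells was not tested.

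Inside cluster 4, cells rich and poor in FABP7 differed in few genes and in the RNA of chromosome 9. The split was chosen after the values were seen. It set 996 monoculture cells with 10 or more FABP7 UMIs, at a median of 31256.5 UMIs, against 804 cells with 0 to 2, at 27567 UMIs. FABP7 itself was 3225 against 26.2 CPM by construction. Of 2323 other genes that averaged 50 CPM or more, 1 was higher by 2-fold (0.043%) and 0 lower (0%), and the higher one was CRABP2, a cellular retinoic acid-binding protein of the same family, with 280 against 126 CPM (log2 1.14). S100A8 (67.2 against 34.6 CPM), CYP1B1 (84.5 against 48.1 CPM), AGR2 (211 against 122 CPM) and ANKRD37 (237 against 142.5 CPM) followed. MGP (338 against 628 CPM), TFF3 (74.2 against 136 CPM) and TFF1 (1627 against 2500 CPM) were the lowest. CRABP2 was also higher in the FABP7-rich cells of cluster 8 (165 against 101 CPM) and of cluster 3 in coculture (319 against 172 CPM). The S-phase and G2M lists had medians of 0.11 and 0.10 in this split, and the share of S or G2M cells was 5.82% and 3.48%. The 36 measured hypoxia-inducible genes had a median of 0.03 in the split, with 0 higher and 0 lower by 2-fold.

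Of the 12 lowest genes in the split, 6 lay on chromosome 9, namely SEC16A, DPP7, C9orf78, RPL7A, UBAC1 and SURF2. RPL7A, a ribosomal protein gene, was 1544 CPM in the FABP7-rich cells and 2214 CPM in the FABP7-poor cells. Of 88 chromosome 9 genes that averaged 50 CPM or more, 86 had a log2 ratio below 0, with a median of -0.27, whereas the median over all genes was 0.02. The shift ran over the whole chromosome and was larger in the distal stretch of the long arm, from 131018108 to 141143667 (GRCh37), where 34 of 36 genes were below 0 with a median of -0.38. The RNA of the 204 genes annotated there had a median of 11364 CPM per cell in cells with no FABP7 UMI, 11240 CPM with 1 to 2, 10580 CPM with 3 to 9, 8897 CPM with 10 to 49 and 7700 CPM with 50 or more. The quartiles of the first and the last of these groups, 9916 to 12343 and 6761 to 9255 CPM, did not overlap. The median mitochondrial share ranged only from 21.2% to 21.5% over these groups.

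The same direction was found in sensitive cells outside cluster 4. In cluster 3 of the coculture, a different library, 83 of 84 chromosome 9 genes were below 0 between 292 cells with 10 or more and 634 cells with 0 to 2 FABP7 UMIs (median -0.26), and 35 of 35 in the distal stretch (median -0.37). In cluster 8 of the monoculture 86 of 92 were below 0 (median -0.24). There the distal stretch did not have the largest shift, with 34 of 37 genes below 0 and a median of -0.24. The earlier stretches of the chromosome had medians of -0.33, -0.33, -0.20 and -0.22 in order. Resistant monoculture cells, near 0 for FABP7, had a median of 11823 CPM from the distal stretch, against 11318 CPM in the FABP7-poor and 8179 CPM in the FABP7-rich cells of cluster 4. The order differed between stretches of the chromosome. From 34394 to 34049386 they had 3498 CPM against 4871 and 3945 CPM, and from 80037995 to 112083339 they had 2730 against 3498 and 3018 CPM, below both groups of cluster 4. From 34086385 to 80036453 they had 2127 against 1983 and 1643 CPM, above both, and from 112137746 to 131017527 they had 7958 against 8751 and 7235 CPM, between them. The medians of the other autosomes and of X lay between -0.03 and 0.10 in cluster 4. The highest was that of chromosome 7, where 110 of 124 genes were above 0 (median 0.10). In cluster 3 of the coculture 105 of 116 chromosome 7 genes were above 0 (median 0.15), and in cluster 8 of the monoculture 65 of 123 (median 0.01). The cause was not tested.

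**Figure D5:**
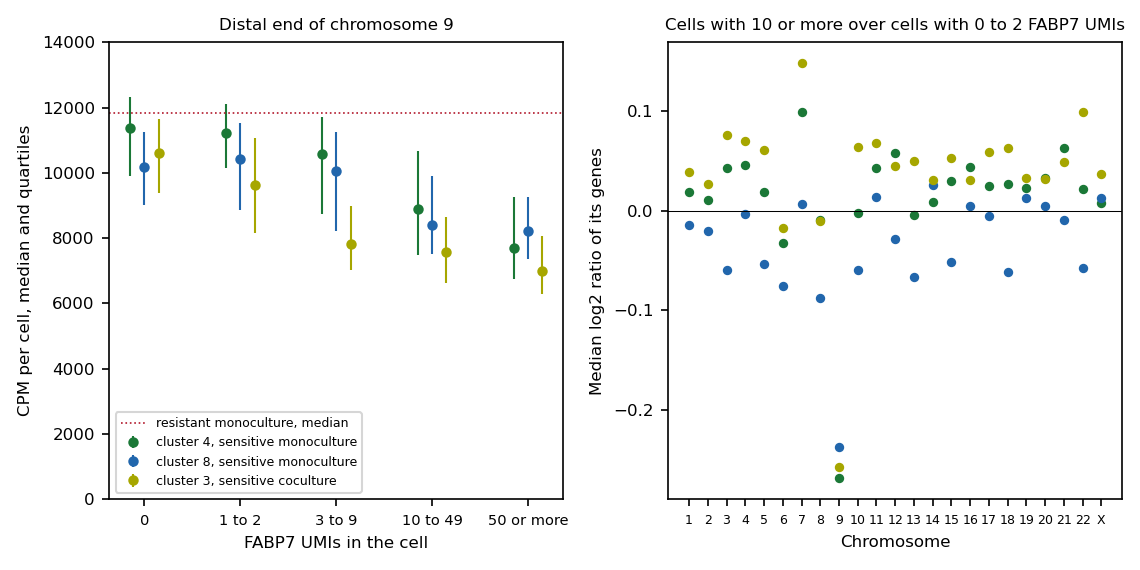
Left, RNA of the 204 genes at the distal end of chromosome 9 in CPM per cell, median and quartiles, by the number of FABP7 UMIs in the cell, for cluster 4 and cluster 8 of the sensitive monoculture and cluster 3 of the coculture, with the resistant monoculture median as a dotted line. Right, the median log2 ratio of the genes of each chromosome between cells with 10 or more and cells with 0 to 2 FABP7 UMIs. Chromosome 9 lies at -0.27, -0.24 and -0.26 and apart from the other chromosomes.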

How the data were processed

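Single-cell RNA sequencing (10x Genomics 3′ chemistry version 3) had been run on 3 CAMA-1 spheroid libraries, and, per the submitters' processing notes and the study's methods, reads had been counted with Cell Ranger 3.0.2 on GRCh37. The deposited tables held raw UMI counts for 8643, 20227 and 11502 barcodes, and 10241 rows without a symbol (0.52% to 0.59% of UMIs) stayed out of gene lists. The authors kept cells with 3000 to 7000 genes, at most 60000 UMIs and at most 30 percent mitochondrial UMIs, and stated that doublets predicted by scrublet (limit 0.25) and cells with fewer than 2 transgene UMIs had been removed, and deposited per cell the counts, the mitochondrial percent, the S and G2M score, the phase, the population and the cluster, which they had computed with 2000 variable genes at resolution 0.8. Of the annotation, 8 columns were not used. Cluster, population and phase were taken as deposited.

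Raw UMIs were summed per cluster and population and expressed as CPM. Ratios were log2(CPM + 1), a gene was called past 2-fold at a log2 ratio of 1 with a mean of at least 50 CPM, list members needed 50 UMIs, and intervals were exact (95%). No test was made. Cells were thinned to 5000 UMIs, doublets were scored with scrublet (scanpy 1.11.5, limit 0.25) and not removed, and TMM factors came from edgeR 4.0.16 as scaling only. Python 3.11.15, numpy 2.4.6, scipy 1.17.1, pandas 2.3.3 and R 4.3.3 were used, and the ratio and thinning steps were tested on simulated data. Gene positions came from GENCODE 44 on GRCh37, a later annotation than that of the counts. Named genes were FABP7, the transgenes, the 12 highest and 12 lowest genes against all cells, cluster 8 and cluster 12, every CDK, RB, E2F and CDK inhibitor gene, and up to 3 members of each other list with the largest ratio within the monoculture. Genes outside this rule (the counts of 5 or fewer and the FABP7 split) were chosen after their values were seen. The members and the 40 lists were chosen with earlier results of these data known, and 2 lists (ribosomal and respiratory chain) had their name patterns corrected after the files were read. Genes with near-identical copies, such as histones, HSPA1A with HSPA1B and metallothioneins, can share reads and are uncertain. An item of a gene list is not reported here.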

Additional observations from a re-analysis of the deposited data

Results flagged for a closer look

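FABP7 was also present in barcodes that the deposited annotation left out and that no comparison above used. In the sensitive monoculture, 5314 such barcodes held FABP7 at 568.552 CPM (exact Poisson 95% interval 563 to 574), with a UMI in 66.0% of them, at a median depth of 14009.5 UMIs. In the coculture, 11876 such barcodes held it at 100.624 CPM (99.4 to 102), with a UMI in 25.3%. Both levels lay above the 0.564 CPM (0.418 to 0.743) of the 3945 barcodes left out of the resistant monoculture, where 0.913% had a UMI. The annotated cells of the sensitive monoculture stood at 1398 CPM, above the barcodes left out of that library, and those of the coculture at 86.4 CPM, below the barcodes left out of theirs. These barcodes carry no cluster, and the cause was not tested.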

How the results depend on the processing

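No paired analysis was possible because each spheroid composition had 1 library. With a mean of at least 20 CPM, the genes past 2-fold were 96 higher and 91 lower against all other cells, 44 lower against the rest of the monoculture, 43 and 49 against cluster 8, 53 and 57 against cluster 12, and 16 and 5 for coculture against monoculture cells of cluster 4. With only the 50 UMI minimum they were 303 and 337, 17 and 157, 201 and 158, 295 and 185, and 63 and 139 in the same order. A pseudocount of 10 CPM gave 1 higher gene within the monoculture, and 15 and 15 against cluster 8. Restriction to G1 cells gave 12 lower genes against all cells, all among the 39, and 6 within the monoculture, of which 3 were among the 15. It reversed the median of the G2M list within the monoculture from -1.31 to 0.35 and gave log2 ratios there of 0.49 for CCNA2, 0.44 for CCNB1, 0.99 for CDK1, 0.082 for CDKN3, 0.42 for CENPF, 0.31 for FOXM1, 0.58 for TOP2A, 0.60 for TPX2 and 1.07 for UBE2C, each -1 or lower over all phases. Weighting the other populations equally gave 19 higher genes against all cells, 17 of them among the 44. TMM scaling gave 12 lower genes against cluster 12. Cells with a mitochondrial share under 20% gave 37 and 43 genes against cluster 8, 34 lower against cluster 12 and 3 lower for the coculture cells, for which thinning gave 8 lower and 2 or more transgene UMIs 3 lower. The share of cluster 4 in S or G2M was 6.81% in those low-mitochondrial cells and 15.98% with phases called after thinning. FABP7 in cluster 4 was 1730 CPM as a mean over cells, 1709 CPM after thinning and 1621 CPM in low-mitochondrial cells. The chromosome 9 median of cluster 4 lay between -0.28 and -0.27 in G1, low-mitochondrial and low-scrublet cells and after thinning. It was -0.26 in cluster 3 of the coculture and -0.24 in cluster 8 of the monoculture. These settings were chosen after seeing the data.

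Of 960 list medians recomputed, 771 moved by less than the limit set for them, 188 moved further and 1 reversed, and of 1447 values of named genes 539 moved and 9 reversed, all 9 within the monoculture with G1 cells only. A value was counted as reversed only where its main log2 value was at least 1 in absolute size. Sign changes of smaller values are therefore not among those reversed. With 1 library per condition, no value has a replicate check, and intervals cover counting error only.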

Other observations

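Members of the steroid enzyme list and other genes not yet described differed between cluster 4 and cluster 8 of the monoculture. Of 16 steroid enzyme genes with 50 or more UMIs, 1 was higher than in cluster 8 (STS) and 3 were lower (CYP1A1, UGT2B15 and UGT2B17), with a median of 0.02, beside 1.76% higher and 1.38% lower over all genes. UGT2B15, which conjugates steroids, was 5.76 CPM in cluster 4 and 22.8 CPM in cluster 8, and its close copy UGT2B17, with which it can share reads, 2.53 and 15.6 CPM. STS, steroid sulfatase, went the other way, with 23.3 CPM in cluster 4, 10.1 CPM in cluster 8 and 17.7 CPM in cluster 12. IRF1, an interferon response factor, was 10.2 CPM in cluster 4 and 43.1 CPM in cluster 8. IGFBP5, an insulin-like growth factor-binding protein, did not pass 2-fold against cluster 8 and was abundant throughout, at 3205 CPM in cluster 4, 5665 CPM in cluster 8 and 4774 CPM in cluster 12. ERBB2 was 41.8 CPM in cluster 4, 86.1 CPM in cluster 8 and 70.4 CPM in cluster 12. Each difference is between sums over cells of 1 library.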
